A study of Mus musculus with 12 samples.

Results

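Cytosolic ribosomal protein genes, which encode the protein part of the ribosome outside mitochondria, were examined in RNA-seq of periocular skin. They were taken as the rows of the count table whose symbol is Rpl or Rps with a number and at most 1 of a few suffixes, together with Rplp0, Rplp1, Rplp2 and Rpsa, leaving out S6 kinases and pseudogene names. The pattern matched 85 of 21247 rows, all 85 reached the minimum of 10 counts over the libraries, and 20454 genes were tested in all. Of the 85, 82 are protein-coding in the GENCODE M21 annotation of GRCm38, and *Rps3a2*, *Rps3a3* and *Rps4l* are annotated as pseudogenes. The groups were 4 libraries labelled ft/ft and 4 labelled ft/ftMyD88-/-, from mice of 6 weeks on a BALB/c background. Both groups carry ft/ft, a spontaneous loss-of-function mutation of filaggrin, a structural protein of the outer epidermis. The ft/ftMyD88-/- line is described as bred in house by crossing in a germline deficiency of MyD88, the adaptor of toll-like and IL-1 family receptors. WT libraries were not analysed here, and the comparison is between skin under these 2 labels.

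A ribosome has a small (40S) subunit, which reads the mRNA, and a large (60S) subunit, which joins amino acids. The subunits are put together in the nucleolus by assembly factors that do not remain in the finished particle. Ribosomal protein mRNAs are short and abundant, and most begin with a terminal oligopyrimidine (TOP) tract, a C followed by a run of C or T, through which mTOR and the RNA-binding protein LARP1 adjust their translation as a group. A few members have a second, tissue-restricted copy, such as *Rpl3l* of striated muscle, and many have processed pseudogenes elsewhere in the genome that resemble them closely.

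Each ft/ft library held 18941705 to 29255129 counts, and each library labelled ft/ftMyD88-/- 15802957 to 27037997. The counts of *Myd88* show no loss under the second label. They averaged 30.7 ± 4.74 CPM in ft/ft and 41.2 ± 7.29 CPM in the libraries labelled ft/ftMyD88-/- (SD, n = 4). *Myd88* was called higher in the latter (log2 fold change 0.42, adjusted p = 0.048), with groups that overlap. The paper reports MyD88 protein staining in ft/ft epidermis and its absence in the ft/ftMyD88-/- line. Counts by gene do not show whether a transcript is intact, so they cannot settle the label. *Xist*, the female-specific X transcript, had 0 to 1 counts in each ft/ft library and 567 to 1964 in the libraries labelled ft/ftMyD88-/-, and the Y-linked *Ddx3y* had 1095 to 1864 against 0 to 11. The study describes sex-matched female mice, which the ft/ft libraries do not match. By these transcripts the groups differ in sex as well as in the genotype label, and the effects of these cannot be told apart. In bulk skin, fewer cells of a type and less RNA per cell cannot be told apart either. Levels are given as CPM, the counts of a gene relative to the TMM-scaled library size of edgeR. Adjusted p is that of the quasi-likelihood test in edgeR, by the Benjamini-Hochberg method over all tested genes.

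Ribosomal protein genes as a group stood at nearly the same level in both groups. Only 3 of 85 were called higher in the libraries labelled ft/ftMyD88-/- at an adjusted p under 0.05 (*Rpl29*, *Rpl7l1* and *Rps4l*), where 10.9% of all tested genes were. Another 3 were called lower (*Rpl3l*, *Rps28* and *Rpl23a*), where 12.3% of all tested genes were. The median log2 fold change of the 85 was -0.03 against 0.01 over all tested genes, with 40 members above 0 and 45 below. The groups did not overlap for 7 members, 3 higher and 4 lower, where 26.7% of all tested genes did not overlap. Without adjustment, 17 of 85 members had a p under 0.05, 4 higher and 13 lower, where 7551 of 20454 tested genes had, 3758 higher and 3793 lower. The median standard error of a member's log2 fold change was 0.13, and for 79 of the 85 the 95% interval of the difference lay within 2-fold in either direction. The 6 whose interval reached further were *Rpl29*, *Rpl3l*, *Rpl13a*, *Rpl41*, *Rpl39l* and *Rpl24*, the last with only 24 counts in all libraries together. Members of the large subunit (50 genes) had a median of -0.02 and those of the small subunit (35 genes) a median of -0.06.

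**Figure D1:**
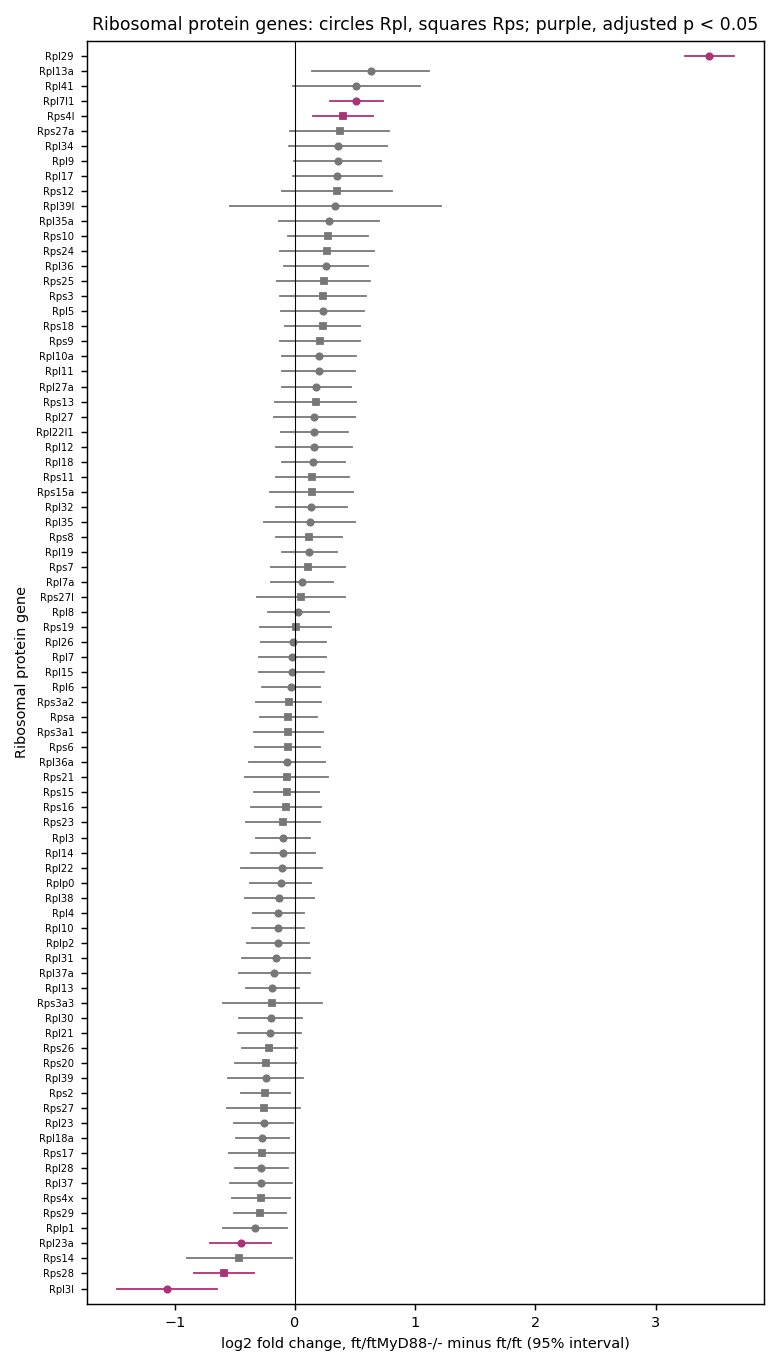
Log2 fold change (libraries labelled ft/ftMyD88-/- minus ft/ft) with its 95% interval for 83 of the 85 ribosomal protein genes in order of the change, *Rpl24* being among those left out, for its low count. Circles are Rpl and squares Rps genes, purple marks an adjusted p under 0.05, and nearly all genes lie close to 0 with *Rpl29* alone beyond 3 on the log2 scale.

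*Rpl29* (ENSMUSG00000048758), a component of the large subunit that is dispensable for life in mice but needed for full body growth, was the exception. It is a gene of 4 exons on the plus strand at chr9:106429454-106431568 of GRCm38. In ft/ft it was at 52.3, 52.8, 52.1 and 53.8 CPM in replicates 1 to 4. In the libraries labelled ft/ftMyD88-/- it was at 575, 558, 530 and 638 CPM. Every library of the second group lay about an order of magnitude above every library of the first, with little spread inside either. *Rpl29* rose 10.9-fold (log2 fold change 3.45 ± 0.09 SE, adjusted p = 2.9e-10), the 4th smallest p of all 20454 genes. The ft/ft libraries differed by a coefficient of variation of 1.46%, the lowest of the 85 members, where the median member varied by 11.9%. As a share of all ribosomal protein counts, *Rpl29* made up 0.0874 ± 0.0107% in ft/ft and 0.949 ± 0.093% in the libraries labelled ft/ftMyD88-/- (SD, n = 4).

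The level of *Rpl29* was also set against the other members per kilobase of sequence that no other annotated gene shares. Of 73 members with at least 100 such positions, *Rpl29* had the 13th lowest level in ft/ft (232 CPM per kb, members' median 1453) and the 57th in the libraries labelled ft/ftMyD88-/- (2534 CPM per kb, median 1386). Only 33.2% of the 50-base windows of its transcript were unique, and 84 other annotated genes share at least 1 window with it, so reads that could come from a copy may be missing from or added to its count. For these levels all counts of a member were divided by its unique positions, though reads outside them can be counted too. *Rps27*, with 1.35% unique windows, was at 560 CPM in ft/ft. The ranks and medians therefore also depend on each member's share of unique sequence. *Rpl29* lies 12.9 Mb from *Myd88* on the same chromosome. The nearest genes moved far less, from *Acy1* at 1.41 kb (log2 fold change -0.42, adjusted p = 0.025) to *Dusp7* at 53.2 kb, an ERK phosphatase and the most changed of the 9 tested genes within 100 kb (1.00, adjusted p = 1.5e-05). Of these 9 genes 6 were called, where 10.9% of all tested genes were called higher and 12.3% lower, and whether position on the chromosome had a part in the value of *Rpl29* was not tested.

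*Rpl7l1*, a relative of *Rpl7* that takes part in assembly of the large subunit, rose more modestly. Its ft/ft libraries were at 110, 105, 106 and 106 CPM and those labelled ft/ftMyD88-/- at 144, 146, 134 and 184 CPM, without overlap. The difference was 1.42-fold (log2 fold change 0.51 ± 0.10 SE, adjusted p = 0.0039). *Rps4l*, an intronless relative of the X-linked *Rps4x* on chromosome 6, was at 27.9, 24.7, 28.0 and 22.9 CPM in ft/ft and at 38.7, 28.1, 33.2 and 36.3 CPM in the libraries labelled ft/ftMyD88-/-. The lowest of the second group barely cleared the highest of the first, and the call (log2 fold change 0.40 ± 0.11 SE, adjusted p = 0.026) was lost on leaving out ft/ft replicate 2 (0.059) or 4 (0.087) or ft/ftMyD88-/- replicate 1 (0.059) or 4 (0.064).

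*Rpl3l*, the copy of *Rpl3* that replaces it in striated muscle, fell most. It was at 66.6, 52.2, 65.6 and 71.8 CPM in ft/ft and at 20.9, 27.2, 41.0 and 33.5 CPM in the libraries labelled ft/ftMyD88-/-. The groups did not overlap, and the level was 2.09-fold lower (log2 fold change -1.06 ± 0.19 SE, adjusted p = 0.0032). All 7 of 7 skeletal muscle markers (*Acta1*, *Ckm*, *Myh4*, *Myh2*, *Tnnt3*, *Actn3* and *Mylpf*) fell too, with a median of -1.10, and none of them was at 0 in any library. Without ft/ft replicate 1 and ft/ftMyD88-/- replicate 4 together 3 of the 7 were called lower. Their summed level was 7501 to 10016 CPM in ft/ft and 2855 to 5306 CPM in the libraries labelled ft/ftMyD88-/-. As for *Rpl3l*, the highest library was ft/ft replicate 4 and the lowest ft/ftMyD88-/- replicate 1, and the part of muscle content in the value of *Rpl3l* was not tested. The general copy *Rpl3* was at 778 to 920 CPM and 727 to 912 CPM and was not called (log2 fold change -0.10, 95% interval -0.33 to 0.13, adjusted p = 0.53).

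Reads tell these copies apart, which the first 60 bases of their longest open reading frames show. The bases are GENCODE M21 transcript sequence, and capitals mark where the copy differs from the gene above it.
Rpl3: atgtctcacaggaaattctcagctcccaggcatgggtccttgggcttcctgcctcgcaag
Rpl3l: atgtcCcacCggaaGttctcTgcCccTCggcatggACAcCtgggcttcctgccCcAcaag
Rps4x: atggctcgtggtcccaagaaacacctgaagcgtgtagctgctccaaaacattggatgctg
Rps4l: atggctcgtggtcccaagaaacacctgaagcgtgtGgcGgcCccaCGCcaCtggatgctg
Rps27: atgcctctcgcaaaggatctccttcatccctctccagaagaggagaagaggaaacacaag
Rps27l: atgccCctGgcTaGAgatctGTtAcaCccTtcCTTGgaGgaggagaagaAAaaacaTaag
The first pair differ at 13 of the 60 positions, the second at 7 and the third at 18. None of the 3 pairs shares a 50-base window of the reading frame, 50 bases being the read length of the study.

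*Rps28*, a small-subunit protein at the mRNA exit and one of the genes mutated in Diamond-Blackfan anaemia, also fell. It was at 293, 218, 281 and 243 CPM in ft/ft and at 150, 164, 175 and 197 CPM in the libraries labelled ft/ftMyD88-/-, without overlap. The difference was 1.51-fold (log2 fold change -0.59 ± 0.12 SE, adjusted p = 0.0037). *Rpl23a*, a large-subunit protein beside the peptide exit tunnel, was at 44.1, 32.8, 36.6 and 33.8 CPM in ft/ft and at 22.8, 29.1, 26.8 and 29.0 CPM in the libraries labelled ft/ftMyD88-/-. The groups did not overlap (log2 fold change -0.45 ± 0.12 SE, adjusted p = 0.015), but only 14.3% of the 50-base windows of *Rpl23a* were unique to it. Reads of shared sequence may be missing from or added to its count.

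**Figure D2:**
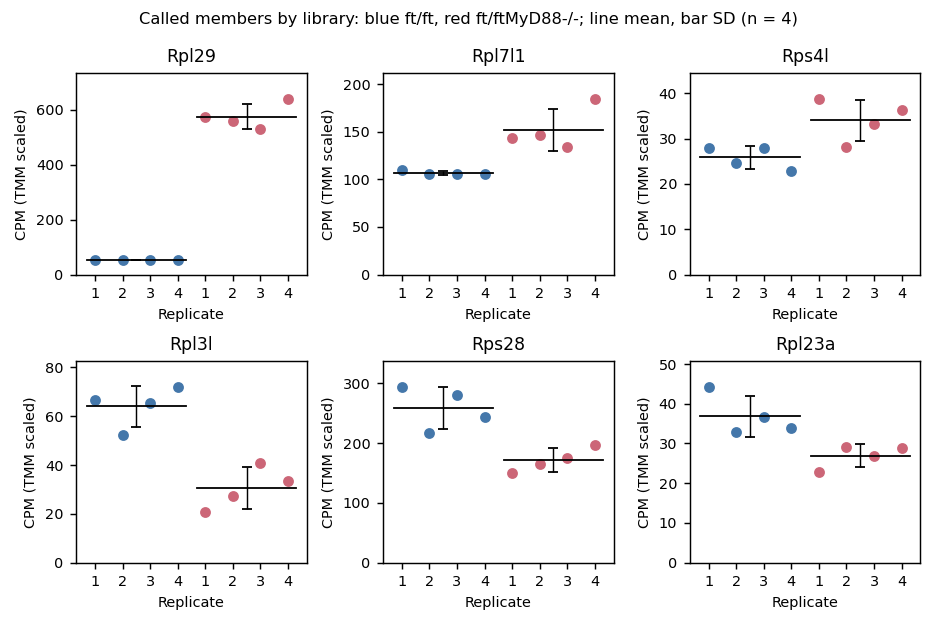
Level (CPM after TMM scaling, axes from 0) of the 6 called members in each of the 8 libraries, with the mean (line) and SD (bar) of each group of 4. *Rpl29* separates the groups by about 10.9-fold, while the other 5 differ by 1.32-fold to 2.09-fold.

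The members with known single roles were mostly within their spread. The stalk proteins, which recruit elongation factors to the large subunit, had log2 fold changes of -0.12 (*Rplp0*), -0.33 (*Rplp1*) and -0.14 (*Rplp2*), and with library size alone as the scale *Rplp0* and *Rplp2* lay above 0 (0.06 and 0.03). *Rplp1* was at 2156, 1508, 1824 and 1623 CPM in ft/ft and at 1288, 1400, 1420 and 1536 CPM in the libraries labelled ft/ftMyD88-/-. Only the highest of the second group reached into the range of the first, and the adjusted p was 0.067, with a call in DESeq2 (0.036) and without ft/ft replicate 2 (0.042). *Rpl5* and *Rpl11*, which with 5S rRNA hold back MDM2 and so link ribosome assembly to p53, differed by 0.23 (95% interval -0.11 to 0.57) and 0.20 (-0.11 to 0.50). *Rps27a*, made as a fusion with ubiquitin, was at 557 to 1004 CPM in ft/ft and 789 to 1253 CPM in the libraries labelled ft/ftMyD88-/- (log2 fold change 0.37, adjusted p = 0.18), and was called higher with library size alone (adjusted p = 0.042), without ft/ft replicate 1 (0.037) and without that library and ft/ftMyD88-/- replicate 4 together (0.049).

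*Rps6*, the substrate of S6 kinase, was at 694 to 844 CPM and 641 to 908 CPM (log2 fold change -0.06, 95% interval -0.33 to 0.21). *Rpsa*, also known as the laminin receptor, differed by -0.06 (-0.29 to 0.18). *Rps19*, the gene most often mutated in Diamond-Blackfan anaemia, differed by 0.00 (-0.29 to 0.30), at 622 to 768 CPM in ft/ft and at 601, 589, 634 and 889 CPM in the other group. *Rps3*, a small-subunit protein with a further role in DNA repair and NF-kappa B, differed by 0.23 (-0.13 to 0.59). *Rpl38*, which affects translation of Hox mRNAs in the embryo, differed by -0.13 (-0.42 to 0.16), *Rpl22*, which is needed for alpha beta T cell development, by -0.11 (-0.45 to 0.23), *Rps27* by -0.26 (-0.57 to 0.04) and *Rpl7* by -0.02 (-0.30 to 0.25). None of these was called.

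Since the groups differ in sex, the 4 X-linked members are given separately. *Rps4x*, a small-subunit protein, was at 1658, 1428, 1597 and 1409 CPM in ft/ft and at 1179, 1182, 1164 and 1472 CPM in the libraries labelled ft/ftMyD88-/-. All but replicate 4 of the second group lay below the first (log2 fold change -0.29 ± 0.11 SE, adjusted p = 0.080), and without that replicate *Rps4x* was called lower (-0.36, adjusted p = 0.025). It was also called lower in DESeq2 and without ft/ft replicate 1 and ft/ftMyD88-/- replicate 4 together. *Rpl10*, at the joint of the subunits, differed by -0.14, *Rpl39*, in the exit tunnel, by -0.25 and *Rpl36a* by -0.06, with adjusted p of 0.34, 0.24 and 0.79. With library size alone as the scale *Rpl10* (0.03) and *Rpl36a* (0.11) lay above 0.

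The remaining copies were not called. *Rpl22l1*, the relative of *Rpl22*, was at 13.1 to 18.6 CPM in ft/ft and 15.2 to 18.8 CPM in the libraries labelled ft/ftMyD88-/-. *Rps27l*, a p53 target and relative of *Rps27*, was at 88.7 to 119.5 CPM and 85.4 to 145 CPM. *Rpl39l*, best known from the testis, was at 2.62 to 3.81 CPM and 1.31 to 6.402 CPM, an interval of difference from -0.54 to 1.21 on the log2 scale.

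Beyond the called genes, the ends of the range were set by *Rpl13a*, *Rpl41* and *Rps14*. *Rpl13a*, known for a second role in silencing inflammatory mRNAs, was at 9.90, 7.56, 7.75 and 7.36 CPM in ft/ft and at 10.6, 9.55, 10.7 and 19.9 CPM in the libraries labelled ft/ftMyD88-/- (log2 fold change 0.63 ± 0.22 SE, adjusted p = 0.061). It was called higher with library size alone (adjusted p = 0.015), in DESeq2 (0.022), without ft/ftMyD88-/- replicate 2 (0.037) or 3 (0.0496) and without ft/ft replicate 1 and ft/ftMyD88-/- replicate 4 together (0.040), while without replicate 4 alone the log2 fold change was 0.34 (adjusted p = 0.12). The lowest of the second group was below the highest of the first, and these levels, low for a gene of this family, were counted over 42.6% unique windows. *Rpl41*, which encodes the smallest ribosomal protein, was at 777, 528, 588 and 573 CPM in ft/ft and at 677, 711, 739 and 1386 CPM in the libraries labelled ft/ftMyD88-/- (0.51 ± 0.24 SE, adjusted p = 0.15), and it was called higher with library size alone (adjusted p = 0.045) and without both ft/ft replicate 1 and ft/ftMyD88-/- replicate 4 (0.027). *Rps14*, the small-subunit gene of the human 5q- syndrome, was at 4816, 3086, 2896 and 3324 CPM in ft/ft and at 2085, 2233, 2355 and 3552 CPM (-0.47 ± 0.20 SE, adjusted p = 0.11), and it was called lower without ft/ftMyD88-/- replicate 4 (adjusted p = 0.021) and without both libraries (0.014). In both genes replicate 1 of ft/ft and replicate 4 of the libraries labelled ft/ftMyD88-/- were the highest of their group.

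That order held for almost the whole family. Ribosomal protein genes took 6.59, 5.14, 5.78 and 5.43% of the counts in ft/ft replicates 1 to 4 and 5.86, 5.96, 6.17 and 8.02% in replicates 1 to 4 labelled ft/ftMyD88-/-. The means were 5.74 ± 0.63% and 6.50 ± 1.02% (SD, n = 4), the ranges overlapped, and the difference of 0.769 percentage points was smaller than the SD of the second group. Without ft/ftMyD88-/- replicate 4 that group had a mean of 6.00 ± 0.16% (SD, n = 3). Replicate 4 was the highest of its group in 81 of 85 members and ft/ft replicate 1 in 80 of 85, where these libraries were the highest of their group in 25.8% and 31.1% of all tested genes. Replicate 4 exceeded the mean of the other 3 by a median of 0.42 on the log2 scale over the members, and ft/ft replicate 1 by 0.28. *Rpl41* stood out most in replicate 4 (0.97) and *Rpl13* least among members above 0 (0.11).

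**Figure D3:**
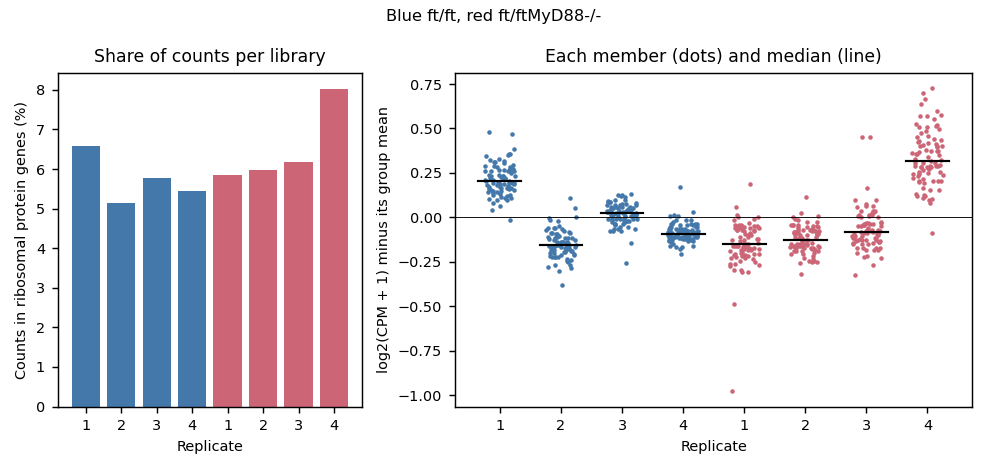
Left, share of counts in ribosomal protein genes in each library (%). Right, log2(CPM + 1) of each of the 85 members minus its mean in the same group, with the median as a line, where ft/ft replicate 1 and ft/ftMyD88-/- replicate 4 lie above 0 for nearly all members.

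The other genes of translation shared part of this order. ft/ftMyD88-/- replicate 4 was the highest of its group in 73 of 76 mitochondrial ribosomal protein genes, in 14 of 20 other TOP mRNAs such as elongation factors, in 32 of 59 ribosome biogenesis factors and in 3 of 18 growth regulators. Transcript length moved with the order as well. Among genes that are no member and average at least 50 counts, replicate 4 was the highest in 63.3% of 712 genes with transcripts under 1 kb and in 9.32% of 4131 genes with transcripts over 4 kb. For ft/ft replicate 1 the shares were 59.8% and 19.1%. Among members under 1 kb, replicate 4 was highest in 96.3% of 54 genes. Replicate 4 had the fewest total counts (15802957) and the lowest share of mitochondrially encoded counts of its group (1.02%), while ft/ft replicate 1 had the highest share of its own (2.72%). Replicate 4 also had the highest summed levels in its group for 6 of 15 marker lists. These were keratinocytes (23404 CPM, others 19524 to 21219), hyperproliferative keratinocytes (5404 CPM, others 3208 to 4924), macrophages and monocytes (822 CPM, others 565 to 764, with only *Lyz2* of the 6 markers highest there), T cells (45.1 CPM, others 31.6 to 39.0), proliferation (475 CPM, others 364 to 425) and neutrophils (958 CPM, others 399 to 704). Taken singly, 3 of 6 keratinocyte markers and 3 of 5 hyperproliferative keratinocyte markers were highest in replicate 4. So were 3 of 6 T cell, 4 of 6 proliferation and 2 of 4 neutrophil markers. Of the neutrophil markers, *S100a8*, *S100a9*, *Cxcr2* and *Csf3r* were in the table. The part of length, depth and cell content in the ribosomal protein levels was not tested.

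**Figure D4:**
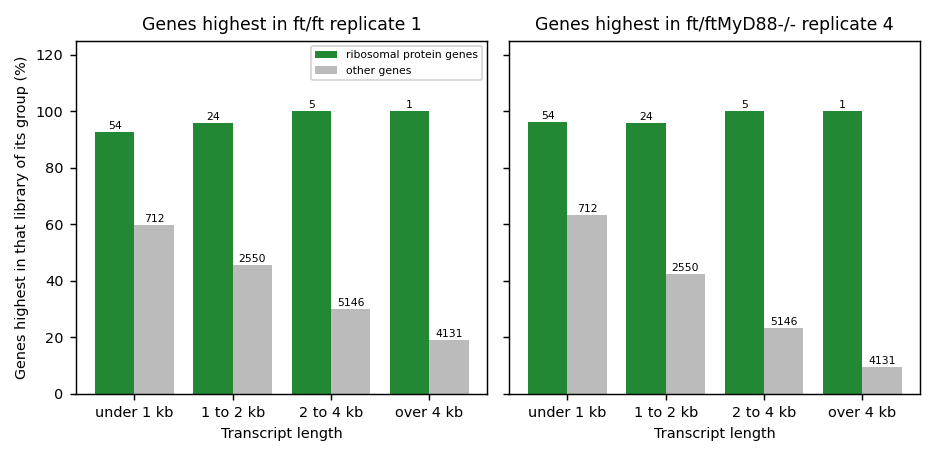
Share of genes (%) that were highest in ft/ft replicate 1 among ft/ft libraries (left) and in ft/ftMyD88-/- replicate 4 among its group (right), by transcript length, with the number of genes above each bar. Among other genes the share falls with length, from 63.3% under 1 kb to 9.32% over 4 kb in replicate 4, while ribosomal protein genes stay above 90% in every class.

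These libraries bear on the calls. Without ft/ftMyD88-/- replicate 4, 2 members were called higher and 12 lower, with a median of -0.14. In that fit 1606 of 20262 tested genes were called higher and 1851 lower. Without ft/ft replicate 1, 4 members were called higher and 3 lower, with a median of 0.06. There 1874 of 20210 tested genes were higher and 2213 lower. Without both, 5 members were called higher and 6 lower, with a median of -0.04. Of all 19990 genes tested without both, 1342 were higher and 1529 lower. *Rpl29*, *Rpl7l1*, *Rpl3l* and *Rps28* were called in the same direction in all 3 of these fits.

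The counting of this family carries its own limit. A median of 48.7% of the 50-base windows of a member's main transcript were found in no other annotated gene, from 1.35% in *Rps27* to 100%, as in *Rpl3l* and *Rpl39l*, and for 21 members the share was under 25%. Among the 42 members with at least 50% unique windows, 2 were called higher and 1 lower, and among the 43 below, 1 and 2. *Rps2* was at 354 CPM in ft/ft and 299 CPM in the libraries labelled ft/ftMyD88-/-, while the row of its processed copy *Rps2-ps10* was at 1192 and 1054 CPM. The 109 rows named as ribosomal protein pseudogenes took 0.133 to 0.164% of the counts in ft/ft and 0.143 to 0.162% in the other group, and 1 was called higher and 2 lower, where 10.9% and 12.3% of all tested genes were. The 2 lower calls fell to 0 with the replicate block and in 6 of 8 fits with 1 library left out, all but those without ft/ft replicate 2 or 4, and without ft/ft replicate 1 the higher calls went from 1 to 3. The one called higher, *Rps10-ps3*, was at 0 in all ft/ft libraries and at 0.175 to 0.294 CPM in the others, near the level of 3 counts, and was not called in DESeq2 or tested with filterByExpr.

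Among the genes that assemble ribosomes more calls were made. Of 59 ribosome biogenesis factors tested, 27 were called higher in the libraries labelled ft/ftMyD88-/-, where 10.9% of all tested genes were, 0 were called lower and 32 were not called, with a median log2 fold change of 0.31, and leaving out ft/ft replicate 1 and ft/ftMyD88-/- replicate 4 together left 19 and 0. With 1 library left out 22 to 31 were higher, and with library size alone as the scale 49 were. *Gnl3* (nucleostemin), a nucleolar GTPase, was at 20.1 to 23.96 CPM in ft/ft and at 35.9 to 45.9 CPM in the other group. The groups did not overlap (log2 fold change 0.91 ± 0.10 SE, adjusted p = 1.7e-04). *Nop56*, a core protein of the box C/D snoRNPs that guide rRNA methylation, rose by 0.66 (adjusted p = 0.0011), and *Dimt1*, an 18S rRNA methyltransferase, by 0.74 (adjusted p = 0.0011). All 6 of 6 proliferation markers rose too, with a summed level of 210 to 279 CPM in ft/ft and 364 to 475 CPM in the libraries labelled ft/ftMyD88-/-, and 5 or 6 did with 1 library left out. Other marker lists differed between the groups as well. Of the T cell markers 5 of 6 were called higher (summed level 21.6 to 28.6 CPM in ft/ft and 31.6 to 45.1 CPM in the other group), of the anagen hair follicle markers 3 of 6 (716 to 1139 and 916 to 5986 CPM) and of the neutrophil markers 1 of 4 (21.5 to 250.03 and 399 to 958 CPM). With 1 library left out these counts ran from 3 to 5, from 1 to 6 and from 0 to 3. Of the macrophage and monocyte markers 1 of 6 was called higher (403 to 498 and 565 to 822 CPM). So was 1 of 5 B and plasma cell markers (0.986 to 4.69 and 5.04 to 31.5 CPM). Hyperproliferative keratinocyte markers had 1 of 5 called higher (2784 to 3573 and 3208 to 5404 CPM) and melanocyte markers 1 of 5 (149 to 225 and 151 to 270 CPM). Leaving out 1 library gave 0 or 1 higher for B and plasma cells and 1 or 2 for the others. Of the keratinocyte markers 4 of 6 were called lower (24312 to 31929.5 and 19524 to 23404 CPM) and of the fibroblast markers 2 of 5 (8643 to 18617 and 4293 to 5861 CPM). Of the endothelial markers 2 of 4 were called lower (203 to 244 and 151 to 194 CPM), but 0 with library size alone as the scale. Of the sebocyte markers 1 of 8 was called higher and 4 lower (6244 to 7239 and 5634 to 7256 CPM), with 2 to 4 lower when 1 library was left out. Of the conjunctiva and simple epithelium markers 2 of 6 were called lower, and 0 in 6 of the 8 fits with 1 library left out. The part of cell content in the biogenesis values was not tested.

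Mitochondrial ribosomal proteins, which make up the separate ribosome of mitochondria, had 17 of 76 genes called higher and 0 lower (median 0.18). Of all tested genes 10.9% were called higher and 12.3% lower. Among them *Mrpl3* rose from 38.8 ± 1.59 to 54.6 ± 7.12 CPM, *Mrpl12* from 14.6 ± 1.24 to 23.3 ± 4.63 CPM and *Mrpl57* from 40.9 ± 0.95 to 58.0 ± 9.55 CPM (SD, n = 4), with adjusted p of 0.0043, 0.0047 and 0.0060. With 1 library left out 8 to 20 were higher, the 8 without ft/ft replicate 3, 9 without ft/ft replicate 4, and 10 each without ft/ft replicate 2 and without ft/ftMyD88-/- replicate 4. Library size alone gave 44 and 0. Of 28 translation initiation factors 4 were called higher and 0 lower (median 0.09), against 10.9% and 12.3% of all tested genes. Initiation factors with TOP mRNAs are not among the 28 and are counted below, with *Eif3f*, *Eif4b* and *Eif3l* called lower. With 1 library left out 2 to 9 were higher, the 9 without ft/ftMyD88-/- replicate 3 and the 2 without ft/ft replicate 3 or 4 or without ft/ftMyD88-/- replicate 1 or 4. DESeq2 called 7 higher and 1 lower, and library size alone gave 12 and 0. The smallest p were those of *Eif2s1*, the alpha subunit of eIF2 (0.72, adjusted p = 0.0037), *Eif1a*, which takes part in scanning (0.45, adjusted p = 0.0059), and *Eif2b3* of the eIF2 exchange factor (0.48, adjusted p = 0.030), a call lost in 7 of 18 alternatives. The 20 other TOP mRNAs had 0 called higher and 4 lower (median -0.06), where 10.9% and 12.3% of all tested genes were. With 1 library left out 2 to 4 were lower, 2 in 5 of the 8 fits (without ft/ft replicate 1, 3 or 4 or ft/ftMyD88-/- replicate 2 or 4), and with library size alone as the scale 4 were higher and 1 lower. *Eef2*, the translocation factor, was at 4937, 4345, 5188 and 4295 CPM in ft/ft and at 3094, 2941, 2912 and 2771 CPM in the other group, without overlap (-0.68 ± 0.11 SE, adjusted p = 0.0011). The other 3 called were the initiation factors *Eif3f*, which fell by 0.40, *Eif4b*, by 0.28, and *Eif3l*, by 0.27 on the log2 scale (adjusted p = 0.0096, 0.029 and 0.036), and the calls of *Eif4b* and *Eif3l* were lost in 9 and 10 of 18 alternatives. For the directions with 0 calls, an unadjusted p under 0.05 in edgeR was reached by 0 biogenesis factors, 0 mitochondrial ribosomal proteins and 2 initiation factors that were lower, and by 0 other TOP mRNAs that were higher. DESeq2 and limma voom also made 0 calls in these directions, except for 1 initiation factor lower in DESeq2.

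**Figure D5:**
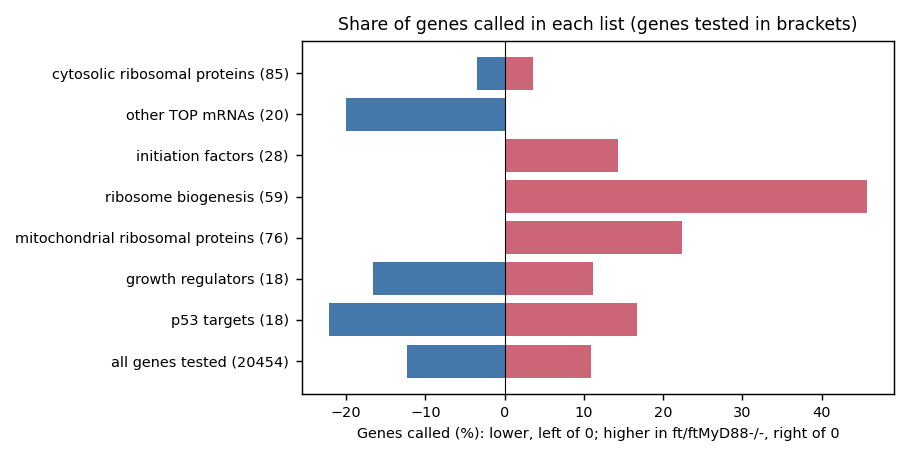
Share of the tested genes of each list (%) called higher (red, right of 0) or lower (blue, left of 0) in the libraries labelled ft/ftMyD88-/-, with the number tested in brackets. Cytosolic ribosomal proteins have 3 of 85 on either side, and ribosome biogenesis has 27 of 59 on the right and 0 on the left.

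Of 18 regulators of ribosome synthesis and translation, 2 were called higher and 3 lower, shares near those of all tested genes (10.9% and 12.3%), and with library size alone as the scale 9 were higher and 1 lower. The count of higher calls fell to 1 with the replicate block and without ft/ft replicate 3 or 4 or ft/ftMyD88-/- replicate 1 or 2. *Mycn*, a MYC family factor, rose from 5.92 ± 1.24 to 15.7 ± 4.71 CPM (adjusted p = 0.0016), whereas *Myc* itself was at 35.7 to 42.6 CPM in ft/ft and 38.3 to 49.4 CPM in the other group (adjusted p = 0.22). *Larp1*, the TOP-binding repressor, had a log2 fold change of 0.38 (adjusted p = 0.044, with groups that overlap), a call lost in 8 of 18 alternatives, where the adjusted p ran from 0.053 to 0.12. *Eif4ebp2*, an mTOR-controlled repressor of cap-dependent translation, fell by 0.47 (adjusted p = 0.0047) and *Maf1*, a repressor of RNA polymerase III, by 0.38 (adjusted p = 0.0062). *Mtor* (-0.18, adjusted p = 0.25) and *Eif4ebp1* (0.11, adjusted p = 0.38) were not called. Of 18 p53 targets, which respond when ribosome assembly is disturbed, 3 were called higher and 4 lower, against 10.9% and 12.3% of all tested genes. With library size alone as the scale 9 were higher and 0 lower, with the replicate block 2 and 2, and without ft/ft replicate 1 and ft/ftMyD88-/- replicate 4 together 1 and 0. Leaving out 1 library at a time gave 2 to 4 higher and 2 or 3 lower. *Pmaip1* (Noxa) rose from 2.56 ± 0.27 to 7.30 ± 0.91 CPM (adjusted p = 1.0e-04) and *Aen* by 0.42 (adjusted p = 0.013), while *Ccng1* fell by 0.54 (adjusted p = 0.013).

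Annotated 5′ ends were searched for the TOP tract. In GENCODE M21, 34 of 85 members had at least 1 transcript whose first base is C followed by at least 4 C or T, against 1591 of 16120 tested genes (9.87%) found in that annotation by name. Annotated starts are often not exact, so the absence of a tract says only that these letters do not open a listed transcript. The first 24 bases are shown for 3 members on the plus strand that have such a start, with the opening run of C and T in capitals. They come from transcripts picked for carrying the tract (Rpl29-202, Rps19-205 and Rpl5-202), which are not the main transcripts used for the windows. The 3 include the most changed member and the least. *Rplp0*, *Rpsa* and *Rpl3* had no such start in any listed transcript.
Rpl29: CTCTTCCggtctccggcgctgcgg
Rps19: CCCTTTCCCCTggctggcagcgcg
Rpl5: CTTTTTCCCCCTTagcgcggccga
The tract is 7 bases in *Rpl29* (10.9-fold higher), 11 in *Rps19* at chr7:24884371-24889806 (1.00-fold) and 13 in *Rpl5* at chr5:107900502-107909005 (1.17-fold). Of the 6 called members, 1 (*Rpl29*) had such a start.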

How the data were processed

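RNA-seq of periocular skin was read from a single table of raw counts, in which the authors deposited whole-number read counts by gene with no scaling. By the study's methods, polyA-selected RNA was sequenced as 50-base single reads, aligned to GRCm38.p6 by HISAT and tophat2, and counted with HTSeq at default settings, which leaves out reads with several equal positions. Versions and strand setting are not given in the sources used here. The labels instead name total RNA, a fixed-tissue protocol and Cell Ranger. The study states 4 mice per group. All 8 columns of the table were used, and 4 WT samples were not analysed here.

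The 20454 genes with 10 or more counts over 8 libraries went into edgeR 4.0.16 under R 4.3.3 (TMM, robust glmQLFit, glmQLFTest, two-sided, no covariate) at a Benjamini-Hochberg adjusted p under 0.05. Standard errors came from the log2 fold change and F, and 95% intervals from the t distribution. No library was a duplicate of another in its group, the smallest chi-square between any pair being 16.3 per degree of freedom. Same-numbered libraries did not deviate together (r from -0.30 to 0.08 over 13508 genes). The fit was tested on simulated data. A count of 0 allows up to 3 counts, which was 0.102 to 0.183 CPM and covers counting error only.

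Alternatives were RLE, upper-quartile and library size scaling, TMM without members, DESeq2 1.42.0, limma voom 3.58.1, filterByExpr, no filter, the replicate block, each library left out, an adjusted p under 0.01, and other member sets. Leaving out ft/ft replicate 1 and ft/ftMyD88-/- replicate 4 together was added after seeing the data. Members and gene lists were chosen with earlier results of these data known. Genes named were members of fixed roles or with a paralog, X-linked members, the 5 highest and 5 lowest log2 fold changes at a mean of at least 50 counts, the 3 smallest p of each list with a call, and *Myc*, *Mtor*, *Larp1* and *Eif4ebp1*. The neighbours of *Rpl29*, the pseudogene rows and *Eif3l* were chosen after values were seen. Some items are not reported here. Windows were matched on both strands of all GENCODE M21 transcripts.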

Additional observations from a re-analysis of the deposited data

Results flagged for a closer look

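A library stood far from the other 3 of its group, by Dixon's criterion, in 9 of 64 series of 4 values, where about 1 in 20 would by chance. In 8 of the 9 it was ft/ftMyD88-/- replicate 4, always as the highest. The share of counts in ribosomal protein genes was 8.02% there, with the others at 5.86 to 6.17%. *Rps3* was at 3588 CPM (others 2309 to 2420), *Rpl7* at 1512 CPM (others 1091 to 1158) and *Rps4x* at 1472 CPM (others 1164 to 1182). *Rpl41* was at 1386 CPM (others 677 to 739), *Rpl3* at 912 CPM (others 727 to 747) and *Rps19* at 889 CPM (others 589 to 634). *Rpl13a* was at 19.9 CPM (others 9.55 to 10.7). The remaining one was *Rpl13a* in ft/ft replicate 1, at 9.90 CPM with the others at 7.36 to 7.75 CPM. These genes move together, so the series are not independent.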

How the results depend on the processing

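The counts of called members, 3 higher and 3 lower, kept within 1.5 times under RLE, upper-quartile and non-member TMM scaling, limma voom, filterByExpr, no filter, an adjusted p under 0.01 and the sets with more members or with a mean of at least 50 counts. Library size alone moved the median of all genes by 0.18 on the log2 scale and gave 14 higher, and there the members' median minus that of all genes was -0.04, as in the fit reported. It also moved the split of all calls from 47.0% to 77.8% higher. DESeq2 gave 8 lower, and members without paralogs gave 1 higher. The replicate block gave 3 higher and 3 lower, so no member's call depended on the pairing, and same-numbered libraries showed no sign of being pairs. It moved calls among other TOP mRNAs from 4 to 2 lower and among mitochondrial ribosomal proteins from 17 to 11 higher, among growth regulators from 2 to 1 higher, among p53 targets from 4 to 2 lower and among pseudogene rows from 2 to 0 lower. With each library left out in turn, 2 to 4 members were higher and 3 to 12 lower, the median ran from -0.14 to 0.06 and the difference in share of counts from 0.264 to 1.05 percentage points. The 5 and 12 lower came without ft/ft replicate 2 and without ft/ftMyD88-/- replicate 4. Without both libraries named above, 5 were higher and 6 lower, and the difference in share was 0.548. Of members called, *Rpl23a* was lost with library size alone (adjusted p = 0.091) and without both libraries (0.053), and *Rps4l* without both (0.074). *Rpl29* was called in all 18 alternatives. The depth limits members with few counts, and the share of sequence unique to a member may limit how well its count stands for it.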
